A study of Mus musculus with 8 samples.

Results

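Sugar that passes the glomerular filter is taken back in the proximal tubule. Sodium-glucose cotransporters (SGLT, SLC5 family) carry it into the cell at the brush border by using the sodium gradient, and facilitative transporters (GLUT, SLC2 family) let it move along its own gradient, mostly at the basolateral side. SGLT2 is known for the bulk of glucose uptake in the early proximal tubule and SGLT1 for recovering what is left in the late proximal tubule, and SGLT2 is a drug target in diabetic kidney disease. The transcripts described here were 10 genes chosen by name: 3 SGLT genes (*Slc5a1*, *Slc5a2*, *Slc5a10*) and 7 GLUT genes (*Slc2a1*, *Slc2a2*, *Slc2a3*, *Slc2a4*, *Slc2a5*, *Slc2a8*, *Slc2a12*), out of 55401 genes in the deposited table.

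Kidney RNA was sequenced from 8 mice with 1 library each, 4 treated with rFGF4 (mice 1, 2, 3 and 5) and 4 not, called model mice (mice 2, 3, 4 and 5). rFGF4 is a truncated, non-mitogenic recombinant fibroblast growth factor 4. Every label gives the genotype as *db*/*db*, a line that lacks a working leptin receptor and becomes obese and hyperglycaemic, whereas the article describes the sequenced kidneys as those of streptozotocin-treated mice given rFGF4 or PBS. The files do not settle which diabetes model was used, and no non-diabetic kidney is among these libraries. In the treatment experiments, male mice received rFGF4 by intraperitoneal injection every other day at 1 mg/kg for 8 weeks, from 12 weeks of age. That the sequenced mice followed this schedule is not stated. The sequencing was meant to find what acts downstream of FGF4 and its receptor FGFR1.

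Values are FPKM (fragments divided by exon length and by the mapped reads of the library), which take gene length into account, so levels of different genes can be set side by side. The table holds no read counts, and the depth behind a value is therefore unknown. Relative depth, estimated from the FPKM step of low genes, was 0.905 to 1.12 of that of model mouse 2. FPKM added up to 389407 to 552604 per library, and mitochondrial genes took 19.0% to 38.4% of this. Proximal tubule genes were present in every library, with a summed FPKM of *Lrp2*, *Cubn*, *Slc27a2* and *Miox* of 441 in rFGF4 mouse 1 and of 985 to 1800 in the other 7. Summed FPKM of 6 macrophage markers was 479 in rFGF4 mouse 1 and 497 in model mouse 5, against 27.5 to 204 elsewhere, and 7 lymphoid markers reached 23400 in model mouse 5 against 26.5 to 2760. These libraries stand apart, and some results are also given without 1 or both of them.

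Upstream sequence is shown for *Slc5a1*, which encodes SGLT1, because it was the gene of the 10 that passed the study's threshold (unadjusted p under 0.05 and a fold of at least 1.5). It comes from RefSeq on GRCm38.p6. The 250 bases before the RefSeq start of *Slc5a1* lie at chr5:33103969-33104218 on the plus strand, and capitals mark the E-box CACGTG, at position -143 from the start.
Slc5a1: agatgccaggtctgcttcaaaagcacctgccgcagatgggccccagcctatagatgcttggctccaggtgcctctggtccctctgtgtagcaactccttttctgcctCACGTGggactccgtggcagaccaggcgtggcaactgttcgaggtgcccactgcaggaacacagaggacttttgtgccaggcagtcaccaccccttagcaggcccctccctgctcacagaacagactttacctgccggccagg
Of 32851 promoters of the same length, 6.02% held CACGTG on either strand. RefSeq entries were found for 7 of the 10 genes, and not for *Slc5a2*, *Slc2a3* and *Slc2a4*. Among these windows CACGTG was found for *Slc5a1* only. The GC box GGGCGG, present in 32.7% of promoters, occurred 2 times before *Slc2a1* and 3 times before *Slc2a5*. The forkhead letters GTAAACA (3.17% of promoters), the AP-1 letters TGACTCA (4.46%) and the ETS letters CCGGAAG (6.91%) had no match in any of the windows. A match is a description of letters and not evidence of binding.

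The order of levels was similar in both groups. In model mice *Slc5a10* was highest at 124 FPKM ± 23.9 (SD, n = 4), followed by *Slc5a2* at 75.4 ± 23.7, *Slc2a5* at 30.4 ± 10.6, *Slc2a2* at 18.3 ± 4.04, *Slc5a1* at 18.3 ± 0.512 and *Slc2a1* at 17.1 ± 3.41. *Slc2a4* at 10.7 ± 1.87, *Slc2a8* at 4.06 ± 0.417, *Slc2a12* at 1.02 ± 0.183 and *Slc2a3* at 0.578 ± 0.398 were lower. The ranges of *Slc2a2*, *Slc5a1* and *Slc2a1* overlapped, and each gene was above the next in only 2 of 4 model mice, so their order is not resolved. *Slc5a10* exceeded *Slc5a2* in 4 of 4 model mice and in 4 of 4 rFGF4 mice, although the ranges overlapped. In rFGF4 mice *Slc5a1* stood at 36.8 FPKM ± 14.1 (SD, n = 4), next to *Slc2a5* at 37.2 ± 18.3, which it stayed below in 2 of 4 mice.

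The 3 SGLT genes together made up 70.5% to 74.7% of the summed FPKM of the 10 genes in every library, although that sum ranged from 201 in rFGF4 mouse 1 to 395 in rFGF4 mouse 3. Shares of 1 sum move against each other by construction. *Slc5a1* took 15.4%, 13.8% and 12.3% in rFGF4 mice 1, 2 and 3, and 5.46% in rFGF4 mouse 5, whose share fell inside the 5.08% to 7.52% of model mice. *Slc5a2* took 6.33% in rFGF4 mouse 1 and 17.9% to 30.1% in the other 7 libraries.

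**Figure D1:**
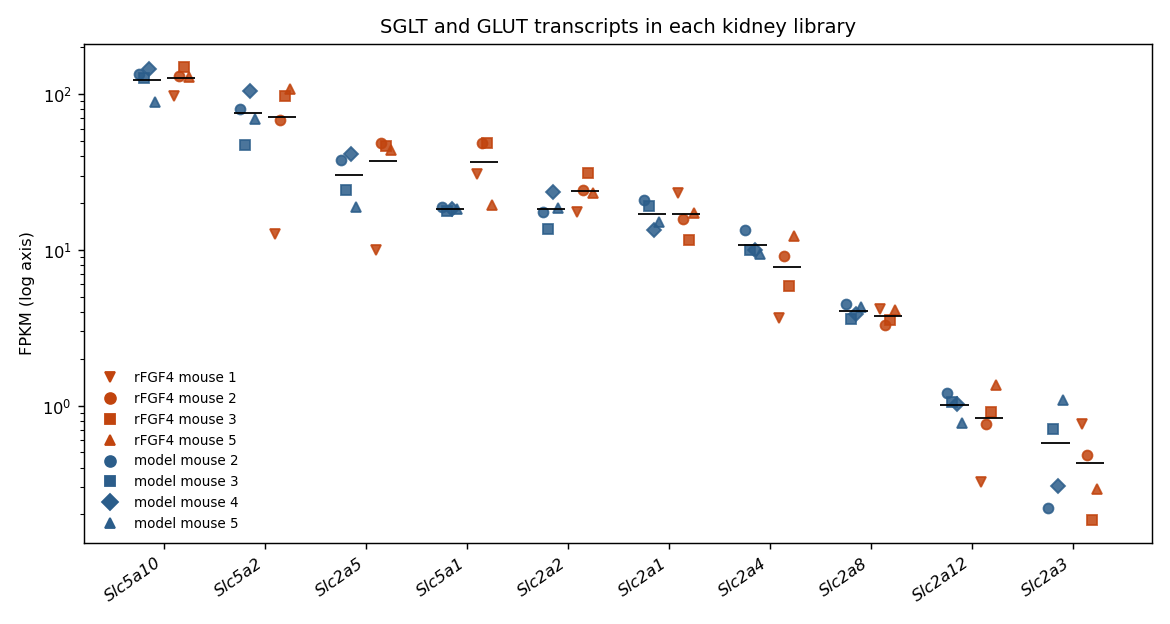
FPKM of the 10 sugar transporter genes on a log axis, ordered by their mean over the 8 libraries; each point is 1 mouse, its shape the mouse number, blue for model and orange for rFGF4, and black bars are group means. *Slc5a1* is the gene whose groups do not touch (19.5 to 48.4 against 17.7 to 18.9 FPKM), and rFGF4 mouse 1 is the low point of *Slc5a2* (12.7) and *Slc2a5* (9.99).

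*Slc5a1* (ENSMUSG00000011034; chromosome 5, 33104219 to 33162870, plus strand, GRCm38) was higher in rFGF4 mice. Its FPKM was 30.9, 48.2, 48.4 and 19.5 in rFGF4 mice 1, 2, 3 and 5, and 18.9, 17.7, 18.3 and 18.4 in model mice 2, 3, 4 and 5. The model mice were close together, the rFGF4 mice were spread out, and the groups did not overlap, with rFGF4 mouse 5 only just above the highest model mouse. The mean FPKM was 2.01 times that of model mice. On the scale log2(FPKM + 1), used for all fold changes below, the log2 fold change was 0.88 (SE 0.27, 95% interval 0.26 to 1.5; limma, p = 0.0113, Benjamini-Hochberg adjusted p = 0.918 over all genes; two-sided exact permutation test, p = 0.0286). The latter is the smallest p that 4 mice against 4 allow. *Slc5a1* passed the threshold, as did 1.52% of all tested genes in either direction and 1.09% in this direction, and it did not pass after adjustment. Groups did not overlap for 3.33% of all tested genes.

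The higher *Slc5a1* level held across settings. In 17 fits that varied the pseudocount, filter, scaling, weights, mouse block and mice, its log2 fold change ran from 0.72 to 1.14 and its p from 0.000284 to 0.0393 (limma, adjusted p from 0.209 to 1.0). The 1.14 came from leaving out rFGF4 mouse 5, the rFGF4 mouse nearest to the model mice, and is no further support. The smallest p also came from a fit with 1 mouse left out. Fits with other filters repeated the main value of 0.88. The log2 fold change was 0.75 with libraries brought to 1 median ratio and 0.93 without rFGF4 mouse 1 and model mouse 5. At a fold of at least 2 it no longer passed. Its level went against the proximal tubule markers in rFGF4 mouse 1, where *Slc5a1* was above every model mouse and the mean of each proximal list was the lowest of the 8 libraries. In bulk kidney RNA, fewer cells of a type and less RNA per cell cannot be told apart.

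*Slc5a2* (ENSMUSG00000030781; chromosome 7, 128265657 to 128272430, plus strand) encodes SGLT2. Its FPKM was 12.7, 68.5, 96.9 and 108 in rFGF4 mice 1, 2, 3 and 5, and 80.6, 47.2, 104 and 69.4 in model mice 2, 3, 4 and 5. Apart from rFGF4 mouse 1, which was the lowest of all, the rFGF4 mice lay within or just above the range of the model mice. The log2 fold change was -0.38 (SE 0.63, 95% interval -1.82 to 1.06; limma, p = 0.562, adjusted p = 0.949; exact permutation p = 0.8), and it turned to 0.30 without rFGF4 mouse 1. In that library proximal markers were low too: the means of the S1-S2, S3 and whole-tubule lists on the log2 scale stood at -1.21, -1.26 and -1.35 relative to the model mean, beside -2.42 for *Slc5a2*, and the distal convoluted tubule list at -1.75. The part of these cells in the *Slc5a2* value was not tested.

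*Slc5a10* (ENSMUSG00000042371; chromosome 11, 61672781 to 61720826, minus strand) encodes SGLT5, a carrier of mannose and fructose, and was measured at 97.9, 130, 150 and 128 FPKM in rFGF4 mice and 135, 126, 144 and 89.4 FPKM in model mice. The groups overlapped and the log2 fold change was 0.04 (SE 0.19, 95% interval -0.41 to 0.48; limma, adjusted p = 0.979). Its sign turned with the scaling, to -0.09 at a common median ratio. Exons of *Slc5a10* overlap *Fam83g* and *Grap*, and those of *Slc5a2* overlap *BC017158*, on the opposite strand. Whether the counting used strand is not given in the sources used here, so reads of these pairs cannot be separated.

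**Figure D2:**
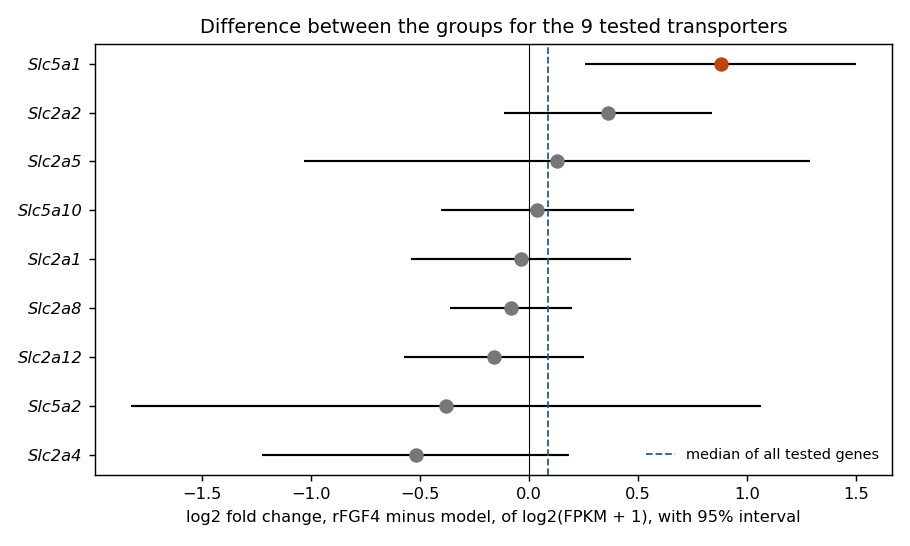
Log2 fold change of the 9 tested transporters, rFGF4 minus model, with its 95% interval from limma; the dashed line is the median of all tested genes (0.09). The interval of *Slc5a1* (0.26 to 1.5, orange) lies above 0, and the other 8 intervals, widest for *Slc5a2* and *Slc2a5*, include 0.

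*Slc2a2* (ENSMUSG00000027690; chromosome 3, 28697903 to 28731359, plus strand) encodes GLUT2, the basolateral exit route that pairs with SGLT2 in the early proximal tubule. Its FPKM was 17.4, 24.2, 31.0 and 23.2 in rFGF4 mice, and 17.6, 13.7, 23.5 and 18.5 in model mice. Mice 2, 3 and 5 of the rFGF4 group lay above at least 3 of the 4 model mice, and the groups overlapped. The log2 fold change was 0.36 (SE 0.21, 95% interval -0.11 to 0.84; limma, p = 0.117, adjusted p = 0.918; exact permutation p = 0.229), and it ran from 0.23 (without rFGF4 mouse 3) to 0.50 (without rFGF4 mouse 1) with each mouse left out.

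*Slc2a1* (ENSMUSG00000028645; chromosome 4, 119108711 to 119137983, plus strand) encodes GLUT1, which is found in most cells and at the basolateral side of later segments. It was measured at 23.0, 15.7, 11.5 and 17.3 FPKM in rFGF4 mice and 20.8, 19.1, 13.5 and 15 FPKM in model mice. The ranges nearly coincided, and the log2 fold change was -0.04 (SE 0.22, 95% interval -0.54 to 0.47; limma, adjusted p = 0.983). Its sign turned to 0.06 when libraries were scaled without mitochondrial genes. Its exons overlap *Gm12868* on the opposite strand.

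*Slc2a5* (ENSMUSG00000028976; chromosome 4, 150119283 to 150144169, plus strand) encodes the fructose transporter GLUT5. Its FPKM was 9.99 in rFGF4 mouse 1 and 48.5, 46.7 and 43.6 in rFGF4 mice 2, 3 and 5, and 37.6, 24.1, 41.1 and 18.8 in model mice. The 3 higher rFGF4 values exceeded every model value, and the fourth was below all of them. The log2 fold change was 0.13 (SE 0.51, 95% interval -1.03 to 1.29; limma, p = 0.803, adjusted p = 0.975; exact permutation p = 0.771). Without rFGF4 mouse 1 it was 0.66 and passed the study's threshold, and it turned slightly negative, to as low as -0.07, when any of 4 other mice was left out (rFGF4 mouse 2, 3 or 5 or model mouse 5).

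*Slc2a4* (ENSMUSG00000018566; chromosome 11, 69942539 to 69948188, minus strand) encodes GLUT4, the insulin-regulated transporter of muscle and fat. Its FPKM was 3.66, 9.17, 5.88 and 12.2 in rFGF4 mice, and 13.5, 9.91, 9.98 and 9.46 in model mice. In 3 of the 4 rFGF4 mice the value was below every model mouse, and rFGF4 mouse 5 was above 3 of them. The log2 fold change was -0.52 (SE 0.31, 95% interval -1.22 to 0.19; limma, p = 0.129, adjusted p = 0.918; exact permutation p = 0.2), and it was -0.75 and passed the threshold without rFGF4 mouse 5, -0.25 without rFGF4 mouse 1 and -0.30 without rFGF4 mouse 1 and model mouse 5. Markers of fat and skeletal muscle in the lists used were near the floor: 6 adipocyte markers added up to at most 0.688 FPKM and 5 skeletal muscle markers to at most 0.801 FPKM in any library, and *Retn* and *Myh4* were at the floor of 0.0001 in all 8. Smooth muscle was in no list. Its genes *Acta2*, *Myl9* and *Myh11*, looked up after the values were seen, had log2 fold changes of -0.62, -0.59 and -0.57, and *Fabp4*, a gene of fat and endothelium, one of -0.73. Of these 4, *Fabp4* passed the threshold (limma, adjusted p = 0.918). The part of such cells in the *Slc2a4* value was not tested.

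The remaining GLUT genes were expressed at low level. *Slc2a8* (chromosome 2, 32972990 to 32982083, minus strand) encodes GLUT8, which resides inside the cell, and lay between 3.31 and 4.52 FPKM in all 8 libraries (log2 fold change -0.08, SE 0.12). *Slc2a12* (chromosome 10, 22645011 to 22704285, plus strand), encoding GLUT12, was 0.324, 0.758, 0.905 and 1.36 FPKM in rFGF4 mice and 1.21, 1.06, 1.02 and 0.771 FPKM in model mice (log2 fold change -0.16, SE 0.18). It was -0.01 without rFGF4 mouse 1 and -0.29 without rFGF4 mouse 5, and -0.37 with a pseudocount of 0.1. Its exons overlap *Tbpl1* on the opposite strand. *Slc2a3* (chromosome 6, 122727809 to 122801640, minus strand), encoding the neuronal and leukocyte transporter GLUT3, was 0.764, 0.481, 0.184 and 0.293 FPKM in rFGF4 mice and 0.219, 0.704, 0.306 and 1.08 FPKM in model mice. It reached 0.5 FPKM in too few libraries to be tested. Its highest values were in model mouse 5 and rFGF4 mouse 1, the libraries with the highest macrophage sums, and the part of those cells was not tested.

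Of the 9 tested genes, 4 had a higher and 5 a lower mean in rFGF4 mice, 1 passed the threshold and 0 passed after adjustment (1 had an unadjusted p under 0.05). Their median log2 fold change was -0.04, against 0.09 for all 15150 tested genes, of which 67.1% were higher in rFGF4 mice. At the threshold, 165 of them rose with rFGF4 and 66 fell. Scaling to a common median ratio gave 93 and 84, with a median of -0.01, and scaling without mitochondrial genes gave 279 and 42, with a median of 0.16. Of the 15150 genes, 0 had an adjusted p under 0.05 with limma (smallest 0.918), and 700 had an unadjusted p under 0.05.

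**Figure D3:**
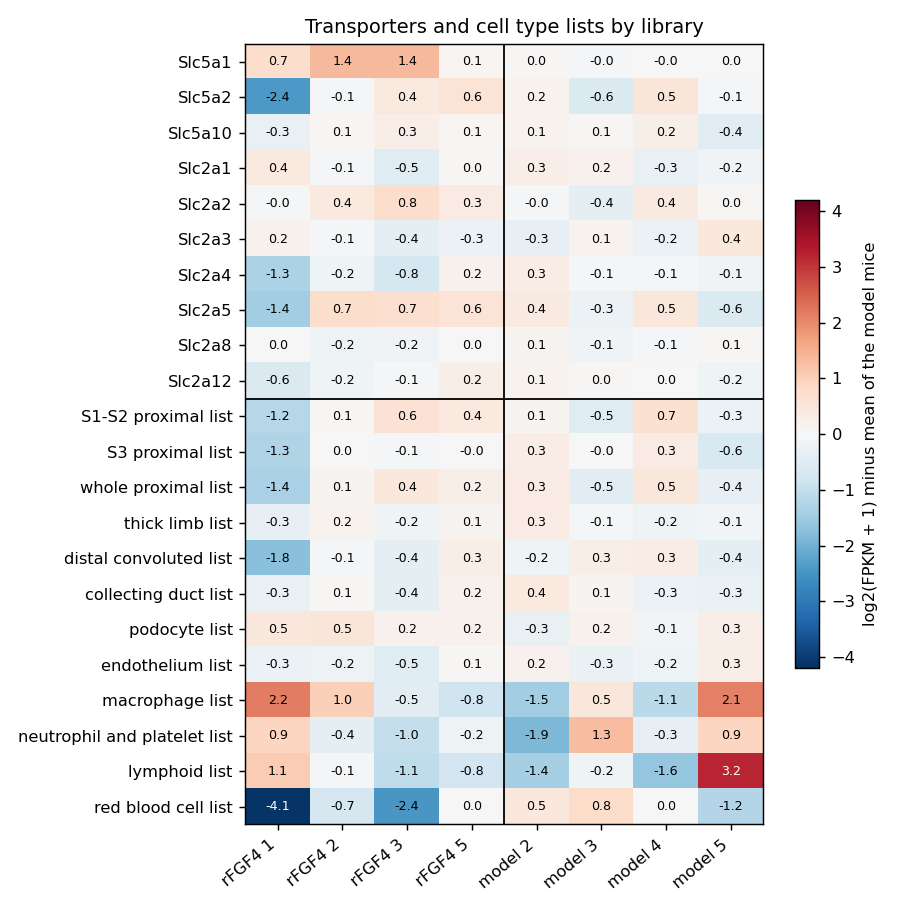
Deviation of each library from the mean of the model mice in log2(FPKM + 1), for the 10 transporters (above the line) and for the mean of 12 cell type marker lists (below). In rFGF4 mouse 1 *Slc5a1* is at 0.72 while *Slc5a2*, *Slc2a4* and *Slc2a5* are at -2.42, -1.32 and -1.45, beside proximal lists at -1.35 to -1.21 and macrophage markers at 2.16.

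Ratios inside a library do not depend on its scaling to first order, and were used to ask whether paired transporters shifted against each other. The difference of log2(FPKM + 1) between *Slc5a2* and *Slc5a1*, that is SGLT2 against SGLT1, was -1.22, 0.50, 0.99 and 2.41 in rFGF4 mice 1, 2, 3 and 5, and 2.03, 1.37, 2.45 and 1.86 in model mice. In rFGF4 mice 1, 2 and 3 it was below every model mouse, and rFGF4 mouse 5 lay among the model mice. The groups differed by -1.26 (two-sided exact permutation test, p = 0.143, adjusted p = 0.381 over 4 ratios). Without rFGF4 mouse 5, the only rFGF4 mouse among the model mice, the difference was -1.84, and without rFGF4 mouse 1 it was -0.63. Leaving out rFGF4 mouse 5 separates the groups, so its exact p of 0.0286 is the smallest that 3 mice against 4 allow and is no further support. The same p for *Slc2a2* against *Slc5a2* and for *Slc5a1* over proximal markers, below, is this floor too.

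For *Slc2a2* against *Slc5a2*, the exit and entry transporters of the early proximal tubule, the ratio was 0.43 in rFGF4 mouse 1 and between -2.17 and -1.47 in the other rFGF4 mice, and -2.13 to -1.71 in model mice. The difference of 0.74 (exact permutation test, p = 0.2, adjusted p = 0.381) rested on rFGF4 mouse 1, without which it was 0.20, and it was 1.07 without rFGF4 mouse 5 (exact p = 0.0286). *Slc2a1* against *Slc2a2* differed by -0.40 (exact permutation test, p = 0.457, adjusted p = 0.457), with overlapping groups, and by -0.69 without rFGF4 mouse 1 and -0.11 without rFGF4 mouse 3. The mean of S1-S2 markers against S3 markers, a measure of early against late proximal tubule, differed by 0.30 (exact permutation test, p = 0.286, adjusted p = 0.381), by 0.13 without model mouse 3, and by 0.51 without rFGF4 mouse 1 and model mouse 5.

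*Slc5a1* was also set against the mean of the 4 whole-tubule proximal markers of the same library, a measure added after seeing the data. It was -0.78, -1.61, -1.92 and -3.01 in rFGF4 mice 1, 2, 3 and 5, and -3.16, -2.43, -3.33 and -2.49 in model mice. Again rFGF4 mice 1, 2 and 3 lay above all model mice and mouse 5 among them. The difference was 1.02 (exact permutation test, p = 0.114, adjusted p = 0.381 over 5 such measures), 1.41 without rFGF4 mouse 5 (exact p = 0.0286), and 0.67 without rFGF4 mouse 1. The same measure differed by -0.24 for *Slc5a2*, 0.18 for *Slc5a10*, 0.51 for *Slc2a2* and 0.27 for *Slc2a5* (exact permutation tests, p from 0.2 to 0.571). Without rFGF4 mouse 1 it was 0.04 for *Slc5a2*, -0.11 for *Slc5a10*, 0.24 for *Slc2a2* and 0.40 for *Slc2a5*.

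**Figure D4:**
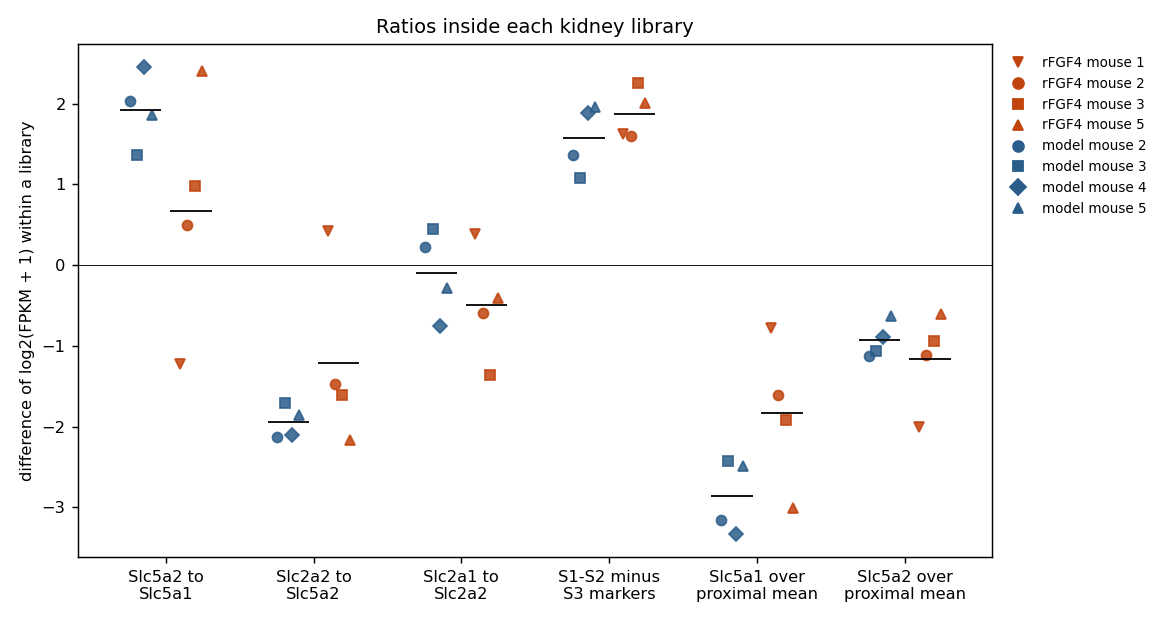
Differences of log2(FPKM + 1) inside each library; points are mice (blue model, orange rFGF4, shapes as mouse number) and bars are group means. For *Slc5a2* to *Slc5a1* and for *Slc5a1* over the proximal mean, rFGF4 mice 1, 2 and 3 lie outside the model mice and rFGF4 mouse 5 (2.41 and -3.01) lies among them.

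To describe what followed the same profile, genes were ranked by the mean absolute difference of their centred log2(FPKM + 1) from that of a transporter over the 8 libraries. Ranked were the tested genes with a mean of at least 1 FPKM. This is a description of likeness and shares the libraries with the values above. Closest to *Slc5a1* were *Gper1* (0.155), *Ncs1* (0.157) and *Etv5* (0.167), and *Etv5*, an ETS family transcription factor, had 7.9, 7.39, 7.85 and 3.88 FPKM in rFGF4 mice and 3.05 to 3.28 FPKM in model mice. Like *Slc5a1*, all 3 had their lowest rFGF4 value in mouse 5. Closest to *Slc5a2* were *Car14*, a carbonic anhydrase (0.127), *Hao2*, a hydroxyacid oxidase (0.136), and *F13b* (0.158), and each had its lowest value in rFGF4 mouse 1. The nearest to *Slc2a2* were *Glud1*, *Mapt* and *Rgl1* (0.0778 to 0.0877) and those to *Slc2a1* were *Gm16136*, *Tnk1* and *Fzd6* (0.0692 to 0.0913).

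The rest of both families was listed separately, 13 genes of which 9 were tested. In limma 0 passed the threshold (1.52% over all tested genes) and 0 had an unadjusted p under 0.05, 7 were lower and 2 higher in rFGF4 mice (67.1% higher over all), and their median log2 fold change was -0.17. The most abundant was *Slc5a8*, a sodium-coupled monocarboxylate transporter, at 22.0 FPKM ± 9.03 (SD, n = 4) against 24.1 ± 7.60, a log2 fold change of -0.20 (SE 0.38). *Slc5a4a* was at 0.15 FPKM or less in every library. Its groups did not overlap, as for 3.33% of tested genes, with at most 0.0227 FPKM in rFGF4 mice and at least 0.0319 in model mice, at a level too low to be tested.

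Of 16 regulators and binding partners of the transporters, all were tested, 12 were higher and 4 lower in rFGF4 mice, 1 passed the threshold and 2 had groups that did not overlap, beside 67.1% higher, 1.52% at the threshold and 3.33% without overlap over all tested genes, and the median log2 fold change was 0.11. *Txnip*, which encodes a glucose-induced arrestin that promotes endocytosis of GLUT1 and GLUT4, was the one. Its FPKM was 230, 237, 179 and 154 in rFGF4 mice and 101, 112, 101 and 147 in model mice, and the groups did not overlap. The log2 fold change was 0.79 (SE 0.19; limma, p = 0.00329, adjusted p = 0.918; exact permutation p = 0.0286), and 0.70 to 0.91 with each mouse left out in turn. *Arrdc4*, its relative, had a log2 fold change of 0.44 (SE 0.40) with overlapping groups, and *Mlxipl*, which encodes the glucose-sensing factor ChREBP, one of 0.21 (SE 0.21). The article reports that rFGF4 lowered blood glucose in *db*/*db* mice and did not in streptozotocin-treated mice. Blood glucose is not given for each sequenced mouse, and its part in the *Txnip* value was not tested.

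*Tbc1d1*, a GTPase-activating protein of GLUT4 traffic, also had groups that did not overlap, with 13.0, 12.7, 12.4 and 11.4 FPKM in rFGF4 mice and 9.64, 10.5, 10.9 and 10.8 FPKM in model mice. Its log2 fold change of 0.22 (SE 0.10; limma, p = 0.0519, adjusted p = 0.918; exact permutation p = 0.0286) did not pass the threshold, and it was 0.10 with libraries brought to 1 median ratio. *Tbc1d4*, the other protein of this kind, was at 1.88 FPKM ± 0.397 (SD, n = 4) against 1.5 ± 0.813. *Pdzk1ip1*, which encodes MAP17, the small membrane partner that SGLT2 needs for activity, was the most abundant of the list at 235 FPKM ± 25.8 against 260 ± 63.5 (SD, n = 4), with a log2 fold change of -0.12 (SE 0.19). In rFGF4 mouse 1, where *Slc5a2* was 12.7 FPKM, *Pdzk1ip1* was 204 FPKM and inside the range of the other libraries. *Hnf4a*, a transcription factor of proximal tubule genes, and *Sgk1*, a kinase known to raise SGLT1 activity, had log2 fold changes of 0.08 and 0.35 with overlapping groups.

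**Figure D5:**
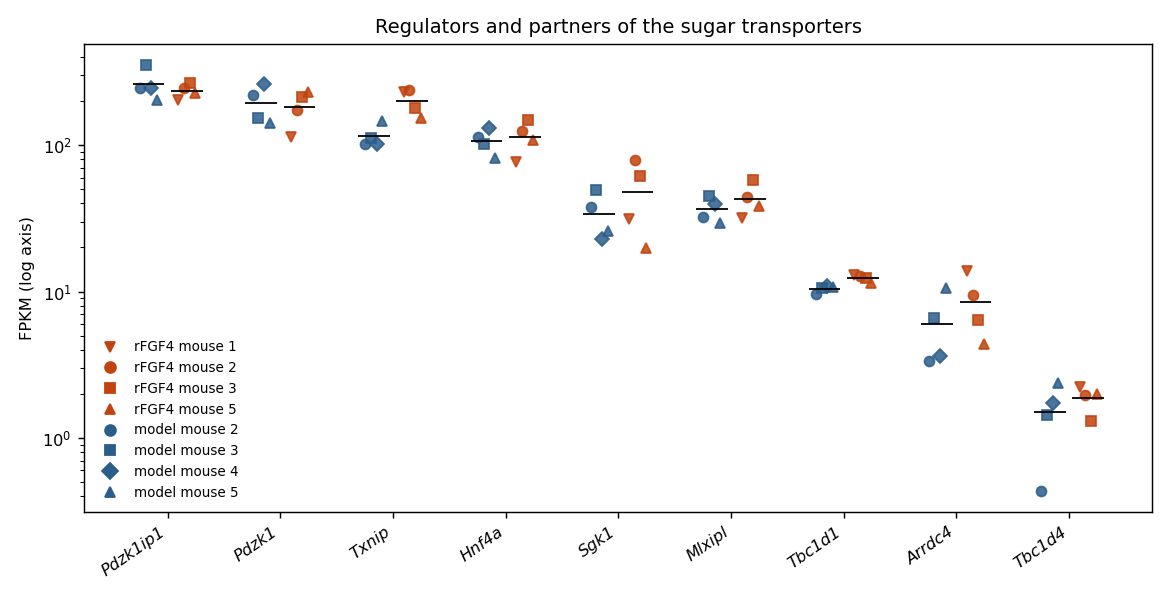
FPKM of 9 of the 16 regulators and partners on a log axis, by mouse, with group means as black bars (blue model, orange rFGF4). *Txnip* (154 to 237 against 101 to 147) and *Tbc1d1* (11.4 to 13.0 against 9.64 to 10.9) are the pair whose groups do not touch.

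Enzymes that act on sugar after entry were measured as 8 genes, 7 of them tested. In limma 0 passed the threshold (1.52% over all tested genes, so that few calls could be met among 7) and 0 had an unadjusted p under 0.05, 2 were higher and 5 lower (67.1% higher over all), and the median log2 fold change was -0.09. *Sord*, sorbitol dehydrogenase of the polyol pathway, was the most abundant, at 186, 517, 604 and 684 FPKM in rFGF4 mice and 593, 413, 795 and 416 FPKM in model mice (log2 fold change -0.26, SE 0.43). Its low value, like those of *Slc5a2* and *Slc2a5*, was in rFGF4 mouse 1. *Khk*, which phosphorylates fructose, was 80.4 FPKM in that mouse and 173 to 283 FPKM in the other 7.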

How the data were processed

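Kidney RNA of 8 mice (4 per group) was sequenced. The authors assembled transcripts with StringTie, merged them and deposited FPKM per gene; the submitters' processing notes name HISAT2 2.0, StringTie 1.3.0, Bowtie 0.12.2 and build mm8, with no role given. The authors' edgeR fold change, p and q columns were not used. The 134 values below 0.0001 and the 254707 at it (57.5%) were read as a floor. Groups came from the labels. Only the mouse numbers there mark the libraries as separate animals, so p-values measure the spread between these libraries. The test took the 15150 genes that reached 0.5 FPKM in 4 libraries, as log2(FPKM + 1) in limma 3.58.1 (R 4.3.3, trend, Benjamini-Hochberg adjustment), since edgeR, which the authors used, needs counts; single values were compared by two-sided exact permutation. The procedure was tested on simulated data. Positions came from GENCODE M21 (99.5% of identifiers matched) on GRCm38. The transporters and the marker lists were chosen with earlier results of these data known. The results of 2 listed genes are not reported here, and their lists were summarised without them. Named beyond the 10 transporters were list genes at the threshold or with groups that did not overlap, the most abundant of the 3 lists of related transporters, regulators and sugar enzymes, the 3 nearest profiles of 4 transporters, and related genes chosen after their values were seen. Figures used matplotlib 3.10.9. Alternatives varied the pseudocount (0.1), filter (none or 1 FPKM), scaling, array weights, fold (2), a block for mouse number, and each mouse left out; leaving out both macrophage-rich libraries and the ratios to proximal markers were added after seeing the data.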

Additional observations from a re-analysis of the deposited data

Results flagged for a closer look

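Groups of 4 mice were searched for a mouse set apart from the other 3, by the gap to its neighbour over the whole range, against Dixon's 95% limit. Of 42 groups, 3 had one, and chance flags about 1 in 20. *Slc2a5* in rFGF4 mouse 1 (9.99 FPKM against 43.6 to 48.5) gave 0.93. *Slc2a4* in model mouse 2 (13.5 FPKM against 9.46 to 9.98) gave 0.851. Over the mean of the proximal markers, *Slc5a10* gave 0.868 for rFGF4 mouse 1 (0.85 against -0.36 to -0.20).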

How the results depend on the processing

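The number of genes at the study's threshold, 231, was 348 with a pseudocount of 0.1, 490 with array weights, 54 at a fold of at least 2, and 181 to 565 with each mouse left out (565 without rFGF4 mouse 5, 419 without model mouse 5). Of the transporters, 1 passed in most fits, 0 at a fold of at least 2, and 1 to 2 with each mouse left out; their median log2 fold change was -0.10 to 0.15 with each mouse left out. Signs turned for small differences: *Slc5a10* to -0.0911 at a common median ratio and *Slc2a1* to 0.0581 without mitochondrial genes. With each mouse left out, *Slc5a2* ran from -0.70 to 0.30, *Slc5a10* from -0.109 to 0.154, *Slc2a1* from -0.19 to 0.123 and *Slc2a5* from -0.0695 to 0.656. *Slc5a2* was 0.28 without both macrophage-rich libraries. Over the proximal marker mean, *Slc5a2* was 0.138 and *Slc5a10* -0.135 without them, and with each mouse left out they ran from -0.424 to 0.0402 and from -0.106 to 0.356. *Slc5a2* to *Slc5a1* ran from -1.84 to -0.63 and *Slc2a2* to *Slc5a2* from 0.20 to 1.07. The causes were not tested.

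Mouse numbers 2, 3 and 5 occur in both groups. Deviations of same-numbered mice correlated at -0.229, -0.155 and -0.393, so they were not alike in this measure. Whether a shared number marks a shared batch is not given, and these values cannot decide it. With the number as a block, 3 transporters passed (*Slc5a1*, *Slc2a2* at 0.62 and *Slc2a5* at 0.82), their median was 0.2346, *Slc5a2* turned to 0.473, *Txnip* (0.655) no longer passed, and over the proximal mean *Slc5a2* and *Slc5a10* were 0.0535 and -0.185. The differences shrank to -0.457 for *Slc5a2* to *Slc5a1*, 0.149 for *Slc2a2* to *Slc5a2* and 0.51 for *Slc5a1* over the proximal mean, and were -0.913 for *Slc2a1* to *Slc2a2* and 0.486 for S1-S2 against S3 markers; 262 genes passed in all.

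With 4 mice a group and no counts, the 95% intervals leave differences of more than 1 log2 unit possible for *Slc5a1*, *Slc5a2*, *Slc2a4* and *Slc2a5*. Low genes such as *Slc2a3* rest on an unknown number of fragments.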

Other observations

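Markers of tubule segments and osmolyte genes gave the surroundings of the transporters. At the threshold were 1.52% of all tested genes in either direction and 1.09% as higher. Of 6 S1-S2 markers, *Slc4a4*, the basolateral sodium bicarbonate cotransporter, passed the threshold as higher in rFGF4 mice (46.5 FPKM ± 10.4 against 29.7 ± 13.1, SD, n = 4; log2 fold change 0.69; limma, adjusted p = 0.918), and the list median was -0.12. Of 5 S3 markers, *Slc22a7*, an organic anion transporter, passed as lower (0.476 FPKM ± 0.331 against 1.40 ± 0.693; log2 fold change -0.67; limma, adjusted p = 0.918), and the list median was -0.42. The groups of *Slc4a4* and *Slc22a7* overlapped (two-sided exact permutation tests, p = 0.114 and 0.0857). None of 4 whole-tubule markers, 4 thick limb, 4 distal convoluted or 5 collecting duct markers passed, with medians of -0.02, -0.11, -0.39 and -0.10. Of these lists 2, 2, 0 and 0 markers were higher in rFGF4 mice, beside 67.1% of all tested genes.

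Of 5 tonicity genes none passed the threshold. The taurine transporter *Slc6a6* had groups that did not overlap (as had 3.33% of all tested genes), at 67.0, 82.5, 71.2 and 57.8 FPKM in rFGF4 mice and 55.7, 40.3, 51.1 and 44.7 FPKM in model mice (log2 fold change 0.53; limma, p = 0.00788, adjusted p = 0.918; exact permutation p = 0.0286). *Slc5a3*, the myo-inositol transporter of the SGLT family, was at 12.3 FPKM ± 3.54 against 11.1 ± 2.03 (SD, n = 4).

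Among 5 podocyte markers, all with a positive log2 fold change (as had 67.1% of all tested genes), *Synpo*, like 1.52% of all tested genes, passed the threshold (3.93 FPKM ± 1.79 against 1.58 ± 0.475, SD, n = 4; log2 fold change 0.87; limma, adjusted p = 0.918). The groups of *Synpo* overlapped (two-sided exact permutation test, p = 0.0571). None of 5 endothelial (median -0.22), 6 macrophage (0.42), 4 tested neutrophil and platelet (-0.19), 5 tested lymphoid (-0.10) or 5 red blood cell markers (-1.97) passed. Of these lists 0, 6, 0, 1 and 0 markers were higher in rFGF4 mice. Summed red blood cell markers were 120 to 2660 FPKM in rFGF4 mice and 1140 to 4330 FPKM in model mice. No adipocyte or skeletal muscle marker was high enough to be tested.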
